A study of Mus musculus with 17 samples.

Results

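A set of 12 bulk RNA libraries from frontal cortex, 6 from mice classed as perseverers and 6 from mice classed as renouncers, were compared in a single model that asked which genes differed between these outcomes in both cortical regions. They were chosen as all dissections taken after the behavioural protocol, and they are 12 of the 17 libraries of the series. The orbitofrontal cortex (OFC) gave 3 renouncer and 3 perseverer libraries, and the medial prefrontal cortex (mPFC) gave 3 and 3. All mice were of the DAT-cre line, in which the dopamine transporter promoter drives Cre recombinase, and all had completed oDASS, a protocol in which a mouse stimulates its own dopamine neurons with light. The labels describe perseverers as addicted and renouncers as non-addicted, and they give neither an untreated group nor ages. Whether replicates were separate animals is not stated. The OFC and the mPFC library of the same phenotype and replicate number carry library codes that differ by 1 in all 6 cases, but the labels do not tie them to an animal. If they share one, p-values over 12 libraries are too small.

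As background, the OFC tracks the value of expected outcomes and the mPFC takes part in the control of actions, and both receive dopamine input and project to the striatum. Seeking that persists in the face of punishment is studied as a model of compulsion, and strengthened glutamatergic transmission from the frontal cortex to the striatum has been linked to it. In bulk tissue, fewer cells of a type and less RNA per cell cannot be told apart, so the levels below describe the whole dissected piece.

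Library totals ranged from 12392731 to 20945108 counts, and haemoglobin genes took 0.0253% to 0.0787% of them. Markers of cortical tissue were present throughout. The summed level of 9 excitatory neuron markers lay between 3945 and 7391 CPM (counts per gene brought to the same library size by TMM scaling), and that of 14 interneuron markers between 1693 and 2921 CPM. The choroid plexus and ependymal list summed to 6.93 to 26.4 CPM, with 4 of its 10 genes, Folr1, Kcne2, Ccdc153 and Tmem212, below the low-count filter. Several libraries stood apart from the others of their group. On the second principal component (17.7% of the variance) the renouncer replicate 3 libraries stood at 17.3 in the OFC and 23.3 in the mPFC. The other renouncers stood at -4.04 to 8.57 and the perseverers at -13.9 to -3.37. Within each region, all perseverer libraries lay below all renouncer libraries on this component. An exact permutation test gave p = 0.005 over 400 splits of libraries within regions (adjusted p = 0.02 over 8 library measures). The exact permutation test over 20 splits of 3 pairs against 3 (a pair shares phenotype and replicate number) gave p = 0.1. Both p-values were the smallest possible. For the first component (40.2% of the variance), an exact permutation test over libraries gave p = 0.72.

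The OFC and mPFC libraries of the same phenotype and number were positively correlated in most cases, but so were some libraries that did not match. The plot of correlations between OFC and mPFC libraries shows both. The Pearson correlation, across genes, of deviations from the group means was 0.739 for perseverer replicate 3, 0.730 for perseverer replicate 2, 0.438 for renouncer replicate 3, 0.253 for renouncer replicate 1 and 0.229 for perseverer replicate 1. For renouncer replicate 2 it was -0.111. Perseverer replicates 2 and 3 deviated in opposite directions from each other, with correlations of -0.726 and -0.679 between regions. Some unmatched libraries were closer than most matched ones. OFC renouncer replicate 2 had 0.554 with mPFC perseverer replicate 3. OFC renouncer replicate 1 had 0.535 with mPFC perseverer replicate 2 and 0.321 with mPFC renouncer replicate 2, against 0.253 with its own number. These values describe the libraries; genes are not independent replicates. For this reason each result is given over 12 libraries and, where it changes the picture, over 3 against 3 pairs of libraries.

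**Figure D1:**
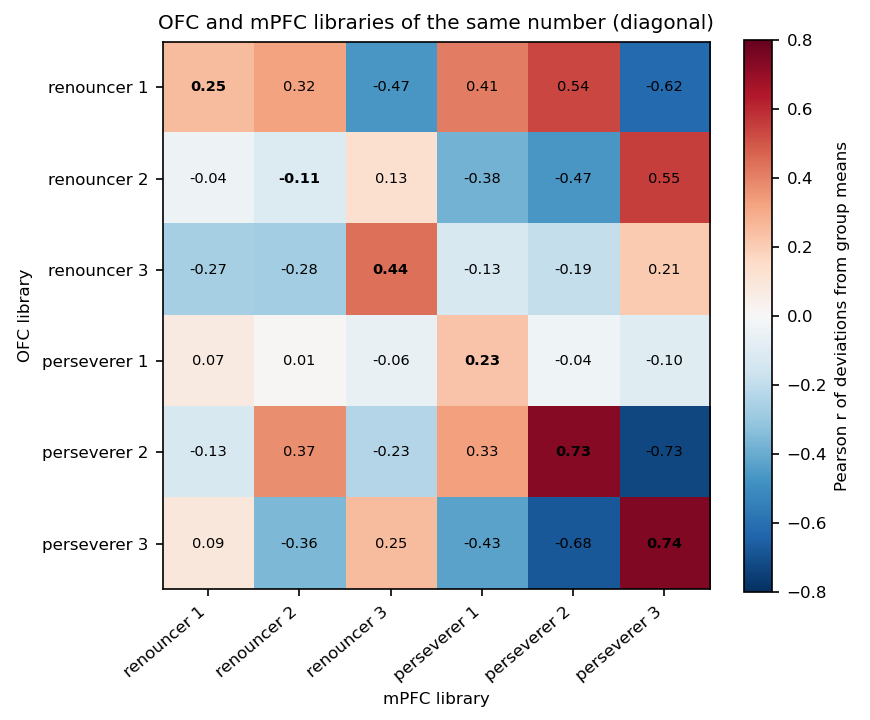
Pearson correlation, across genes, of each OFC library's deviation from its group mean (vertical axis) with that of each mPFC library (horizontal axis). Bold values on the diagonal are libraries of the same phenotype and number; the strongest are 0.74 and 0.73, for perseverer replicates 3 and 2, and the lowest is -0.11, for renouncer replicate 2.

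No gene passed the test over both regions. With edgeR's quasi-likelihood test and region as a term, 0 of 15025 genes (0%) had an adjusted p under 0.05, and the smallest adjusted p was 0.345. At an unadjusted p under 0.05 there were 1669 genes, 11.1% of those tested. Of these, 1060 (7.05%) lay higher and 609 (4.05%) lower in perseverers. DESeq2 called 109 genes, 78 higher and 31 lower, with 7574 genes given no adjusted p by its filter. When the counts of the 2 libraries of a pair were summed, so that 3 units stood against 3, edgeR called 0 genes and 707 (4.59%) had an unadjusted p under 0.05. A limma voom fit that carried the correlation within pairs (0.343) called 0, with 859 (5.72%).

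Differences were small for abundant genes. Among the 8393 genes with a mean log2 CPM above 4, none had a log2 fold change beyond 1 in either direction, and the median standard error of the fold change was 0.131. The higher and lower shares also depended on the scaling. With library totals alone as scaling, 655 genes lay higher and 1109 lower at an unadjusted p under 0.05, and the median fold change of all genes moved from 0.006 to -0.038.

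The fold changes of the 2 regions were correlated across genes. The log2 fold changes in the OFC and in the mPFC had a Pearson correlation of 0.630 across the 8393 genes, which is a description, since the libraries of the 2 regions may come from the same animals. All 3 perseverer libraries lay above all 3 renouncer libraries in both regions for 183 genes (1.22% of those tested) and below in both for 86 (0.572%), while 17 genes were apart in opposite directions. On CPM of the library total these counts were 96, 212 and 19, so that which direction held more genes changed with the scaling.

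**Figure D2:**
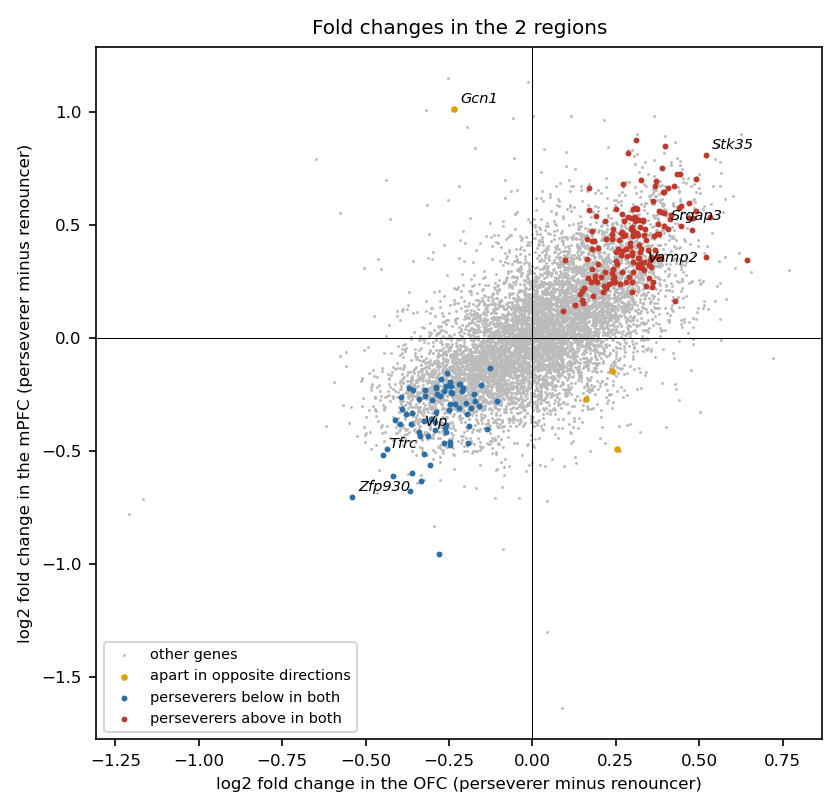
Log2 fold change of perseverers against renouncers in the OFC (horizontal axis) and in the mPFC (vertical axis), 1 point per gene for the 8393 genes with a mean log2 CPM above 4. Most genes apart in both regions lie along the diagonal, in red where perseverers lay above and in blue where they lay below, and Gcn1 stands out among those apart in opposite directions.

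The 12 higher genes with the smallest p in the pooled fit included regulators of the cytoskeleton, of transcription and of RNA. Srgap3 (chromosome 6, 112717971 to 112947505, GRCm38), a Rac GTPase-activating protein that shapes dendritic spines, stood at 65.6, 58.9 and 62.2 CPM in OFC renouncers and 79.7, 77.3 and 88.5 in OFC perseverers. In the mPFC it stood at 62.5, 63.6 and 58.5 against 79.6, 81.3 and 99.1 CPM. All 6 perseverer libraries thus lay above all 6 renouncer libraries. Its log2 fold change was 0.45 ± 0.09 (SE), with an adjusted p of 0.345 by edgeR and 0.00564 by DESeq2, both over 12 libraries. With counts summed per pair, edgeR gave it an adjusted p of 0.865. The limma voom fit with the correlation within pairs gave 0.822.

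Spen (chromosome 4, 141467885 to 141538644), a transcriptional corepressor that binds RNA, stood at 39.8, 43.9 and 33.2 CPM in OFC renouncers and 48.2, 50.7 and 63.0 in OFC perseverers. Its mPFC levels were 41.6, 39.2 and 40.3 against 55.2, 57.03 and 70.6 CPM. The groups did not overlap in either region, and the log2 fold change was 0.53 ± 0.11 (SE). Arnt2 (chromosome 7, 84246274 to 84411741), the partner of bHLH-PAS factors in neurons such as Npas4, lay at 204, 204 and 167 CPM against 250, 229 and 293 in the OFC. In the mPFC its levels were 178, 154 and 128 against 227, 216 and 288 CPM. Both regions were apart, with a log2 fold change of 0.55 ± 0.12 (SE).

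Stk35 (chromosome 2, 129800517 to 129832287), a nuclear serine/threonine kinase, had a log2 fold change of 0.66 ± 0.15 (SE). Its OFC levels were 27.4, 26.3 and 23.4 CPM in renouncers against 36.4, 36.7 and 37.6 in perseverers. The mPFC levels were 26.3, 24.4 and 16.2 against 34.4, 31.8 and 50.9 CPM, where the lowest value was renouncer replicate 3 and the highest perseverer replicate 3. Ago2, the Argonaute protein that carries microRNAs, followed at 0.53 ± 0.12 (SE), and the RNA helicase gene Helz at 0.44 ± 0.10.

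The other 6 of these genes were Tmem94, Irgq, Fam53c, Nploc4, Ap2a2 and Acap3, with log2 fold changes from 0.39 to 0.59. Ap2a2 encodes a subunit of the AP-2 clathrin adaptor, which takes up synaptic vesicle membrane, and Nploc4 a cofactor of the ATPase VCP. Of the 12 genes, 11 had perseverers above renouncers in both regions, as did 1.22% of all genes tested. Tmem94 was the exception, since the 51.2 CPM of OFC renouncer replicate 1 exceeded the 47.8 CPM of OFC perseverer replicate 1. The pooled fold changes of the 12 kept their sign under all 31 alternatives for each gene, and DESeq2 called all 12 among its 109. The 31 include the main fit at a looser threshold of 0.1, which could not change a sign. The 12 were picked for small p on these same libraries, so these counts are not separate support.

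**Figure D3:**
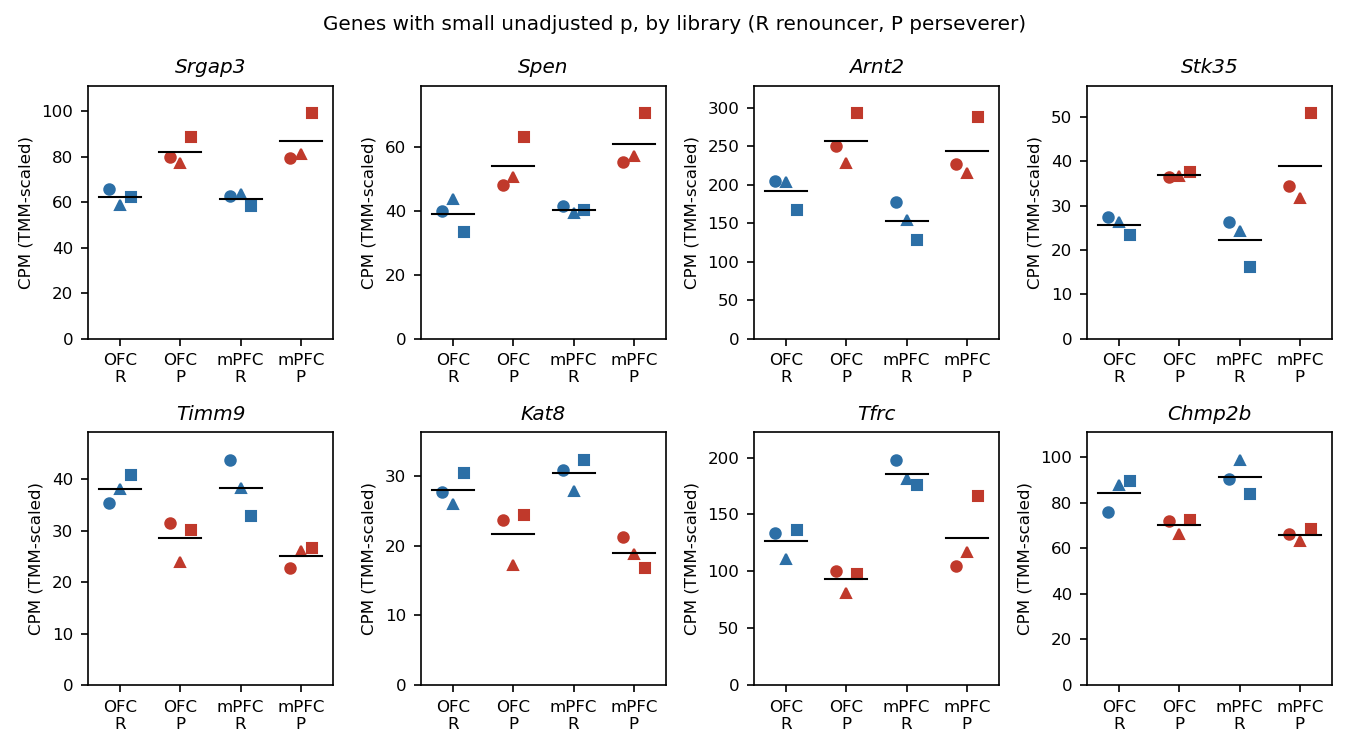
TMM-scaled CPM (vertical axes, from 0) of 4 genes that lay higher and 4 that lay lower in perseverers, for each library by region and phenotype; circles, triangles and squares are replicates 1, 2 and 3, and black lines are means of 3. For Srgap3 the perseverer libraries lie between 77.3 and 99.1 CPM and the renouncer libraries between 58.5 and 65.6. The 2 groups do not overlap within either region for any of the 8 genes, which were picked among those with the smallest p.

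Among the 12 lower genes with the smallest p, mitochondrial import, endosomal sorting and protein turnover were represented. Timm9 (chromosome 12, 71123172 to 71136708), a chaperone of the mitochondrial intermembrane space, stood at 35.5, 38.1 and 40.9 CPM in OFC renouncers and 31.6, 23.9 and 30.2 in OFC perseverers. In the mPFC it stood at 43.8, 38.3 and 32.9 against 22.8, 26.0 and 26.6 CPM. The groups did not overlap in either region, and the log2 fold change was -0.51 ± 0.11 (SE). Its adjusted p over 12 libraries was 0.345 by edgeR and 0.0118 by DESeq2. With counts summed per pair, edgeR gave 0.865, and limma voom with the correlation within pairs gave 0.822.

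Kat8 (chromosome 7, 127912517 to 127925838), the acetyltransferase of lysine 16 of histone H4, had OFC levels of 27.7, 26.0 and 30.4 CPM in renouncers against 23.6, 17.2 and 24.4 in perseverers. Its mPFC levels were 31.0, 27.9 and 32.4 against 21.3, 18.8 and 16.8 CPM. The log2 fold change was -0.52 ± 0.13 (SE). In both regions every perseverer library lay below every renouncer library.

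Tfrc (chromosome 16, 32608896 to 32632794), the transferrin receptor through which cells take up iron, stood at 134, 110.96 and 136 CPM against 100, 81.1 and 97.8 in the OFC. Its mPFC levels were 198, 181 and 176 against 105, 117 and 166 CPM. It was apart in both regions, with a log2 fold change of -0.48 ± 0.12 (SE). The deposited length of Tfrc is 5149 bases, and its fold change was -0.58 once the length trend described below was removed. Tfrc was the longest of the 12 lower genes. The others were 1081 to 2996 bases long, and the 12 higher genes 4312 to 13185.

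The remaining 9 were Ppp2r3c, Chmp2b, Cbr1, Mtx2, Zfp930, Psmc6, N6amt1, Klhdc2 and Lamtor3, with log2 fold changes from -0.33 to -0.62. Chmp2b is part of the ESCRT-III complex that sorts endosomal cargo, Psmc6 is an ATPase of the proteasome, Mtx2 belongs to the outer mitochondrial membrane import machinery, and Lamtor3 is a part of the Ragulator complex that anchors mTORC1 to lysosomes. All 12 lower genes were apart in both regions, as were 0.572% of all genes tested in that direction. They too were picked for small p on these libraries. DESeq2 called 11 of them and gave N6amt1 no adjusted p.

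The fold changes followed gene length. Across the 8393 abundant genes the Spearman correlation of the pooled log2 fold change with gene length was 0.495 (0.438 in the OFC and 0.460 in the mPFC), and with GC content it was 0.312. In deciles of length, the shortest genes (median 965 bases) had a median log2 fold change of -0.19, and the longest 0.16. Genes that lay higher at an unadjusted p under 0.05 had a median length of 4947 bases, those that lay lower 1896, and all abundant genes 3294.

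Within single libraries the length trend, the rank correlation (Spearman) between gene length and how far a gene lay from its mean log2 level in the 12 libraries, was 0.183, 0.395 and -0.015 in OFC perseverers and 0.287, -0.296 and -0.399 in OFC renouncers. In the mPFC it was 0.283, 0.312 and -0.030 against -0.050, -0.116 and -0.376. Perseverers lay above renouncers in the mPFC, while the OFC groups overlapped through renouncer replicate 1. The means were 0.188 and -0.158. The exact permutation test, two-sided, gave p = 0.035 over 400 splits of libraries within regions (adjusted p = 0.0933 over 8 library measures) and p = 0.2 over the 20 splits of 3 pairs against 3, where the smallest possible p is 0.1. The mean GC trend was 0.11 for perseverer libraries and -0.119 for renouncer libraries. Its exact permutation test gave p = 0.005 over libraries, the smallest they can give (adjusted p = 0.02), and p = 0.1 over pairs.

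Removing the length trend of each library left 0 genes called and 1380 at an unadjusted p under 0.05, 717 higher and 663 lower, with 954 shared with the 1669. The genes apart in the same direction in both regions were then 126 above and 96 below, and 121 of the original 269 remained among them. Srgap3 then had a log2 fold change of 0.29, Spen 0.36, Arnt2 0.44 and Stk35 0.55. Among lower genes, Timm9 then stood at -0.37, Kat8 at -0.45 and Cbr1 at -0.24, in place of -0.51, -0.52 and -0.39. The correlation of the fold change with length was then 0.033, and that with GC content was 0.491 in place of 0.312.

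Removing the GC trend of each library instead left 0 genes called and 1469 at an unadjusted p under 0.05, 784 higher and 685 lower, with 1123 shared with the 1669. The correlation with GC content was then 0 and that with length was 0.602 in place of 0.495. The median of the oxidative phosphorylation genes was -0.188 after this step, close to its value with no trend removed. The 2 trends were not removed together.

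**Figure D4:**
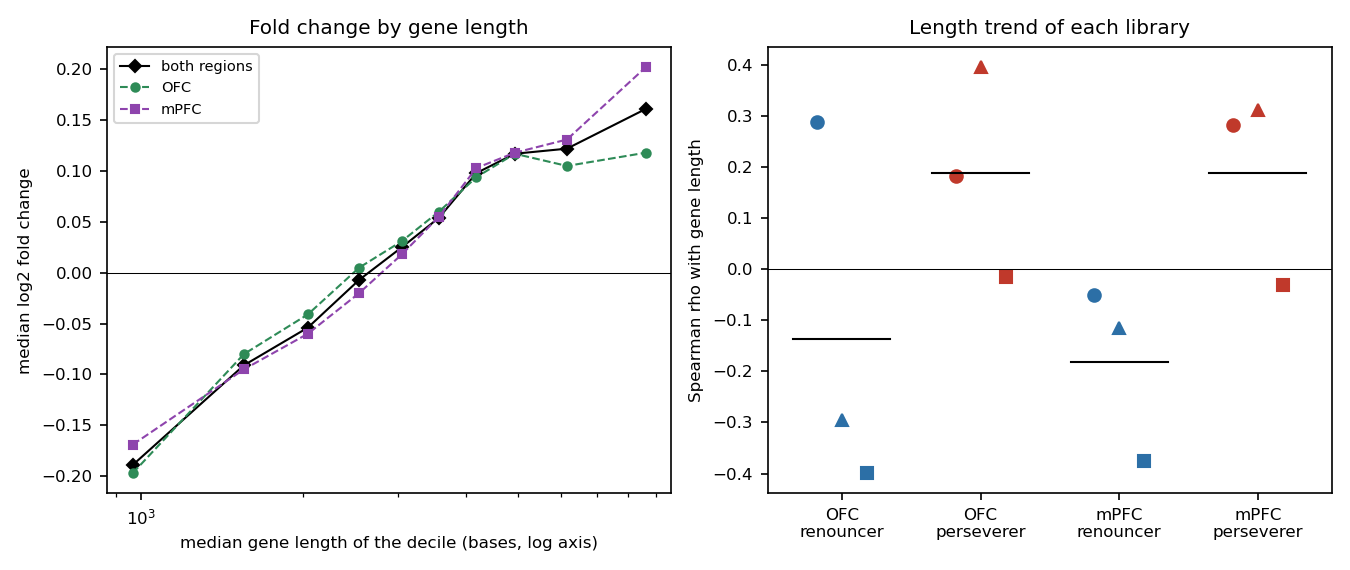
Left, median log2 fold change of perseverers against renouncers (vertical axis) in deciles of genes by length (horizontal axis, bases, log axis) for both regions and for each region; it runs from -0.19 to 0.16 over both regions. Right, Spearman correlation of each library's deviations with gene length by region and phenotype (circles, triangles and squares are replicates 1, 2 and 3, lines are means); OFC renouncer replicate 1 at 0.287 overlaps the perseverers.

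Gene groups are described next by their counts and medians, to be read beside the background of all 15025 genes, of which 7660 had a positive fold change, the median was 0.006 and 11.1% had an unadjusted p under 0.05. No member of any of the 41 groups passed edgeR's adjusted threshold. The median kept its sign under all 31 alternatives in 15 groups and changed it under at least 1 in 26, so ranges are given with the directions. Of 84 genes followed over both regions, 20 had a fold change that moved by over 1.5 times without both libraries of perseverer replicate 3, and for 18 of them it moved toward 0. Without both of renouncer replicate 3, 10 genes moved by as much, all toward 0. The length trend moved with many of these groups and its part in them was not tested beyond the values with the trend removed. Group medians are plotted by region, with and without the length trend.

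**Figure D5:**
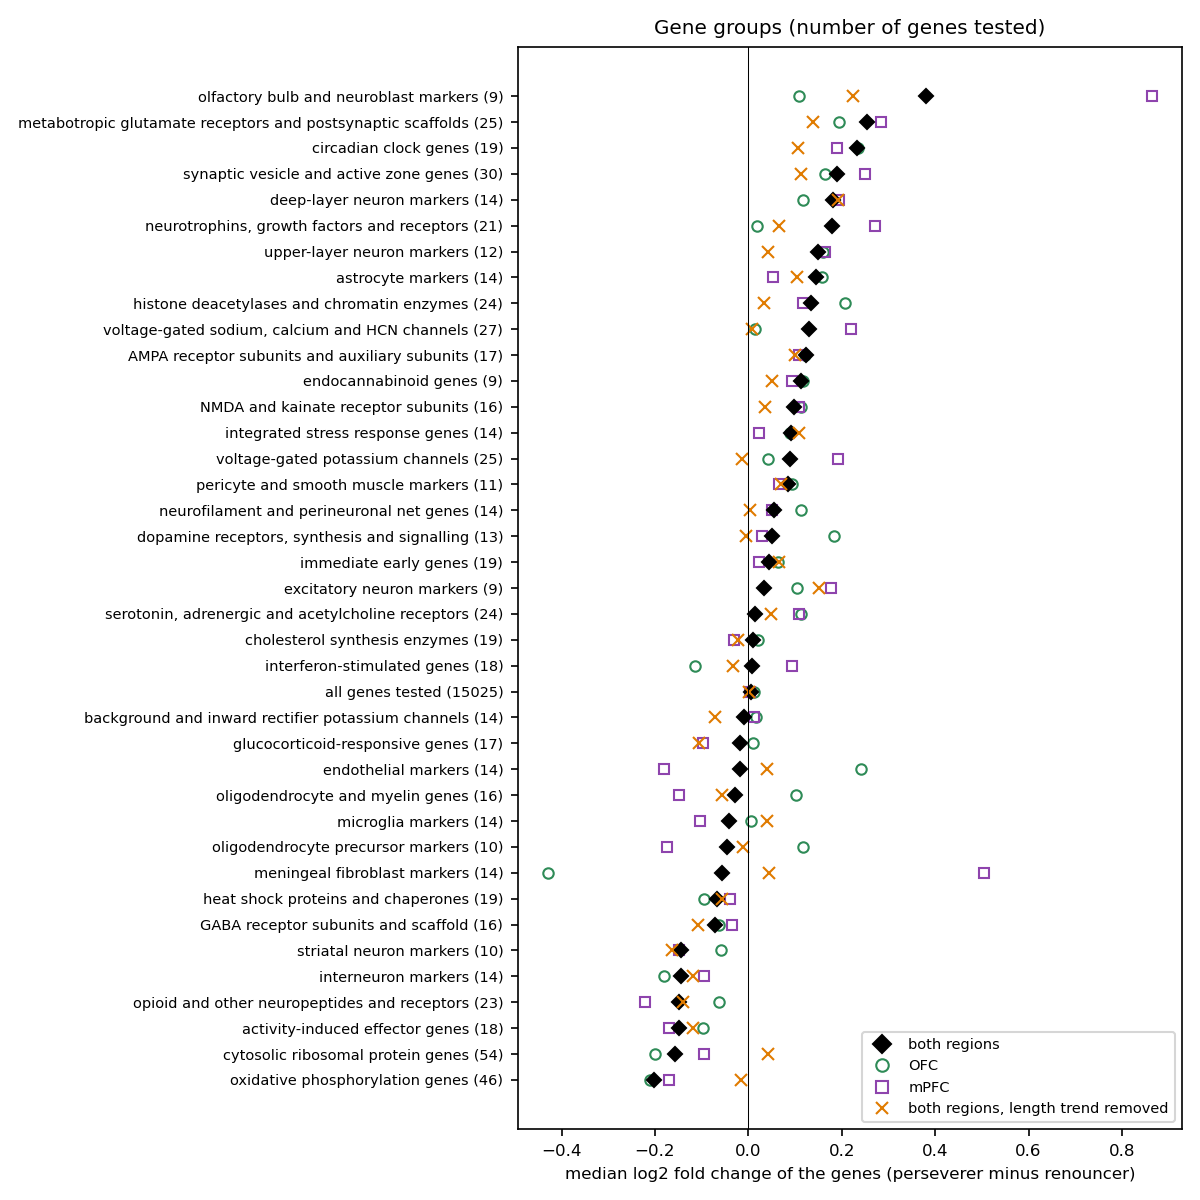
Median log2 fold change of perseverers against renouncers (horizontal axis) for each gene group (vertical axis, number of genes tested in parentheses), over both regions, in each region, and over both regions after removal of the length trend. Postsynaptic scaffold, clock and synaptic vesicle genes lie to the right (0.255, 0.232 and 0.190), and oxidative phosphorylation and ribosomal protein genes, at -0.202 and -0.158, move to -0.016 and 0.042 when the length trend is removed.

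Presynaptic genes lay mostly higher in perseverers. Among 30 synaptic vesicle and active zone genes, 24 had a positive fold change, the median was 0.19 (0.164 in the OFC and 0.250 in the mPFC) and 8 lay higher at an unadjusted p under 0.05, with 0 lower. The median was 0.112 with the length trend removed. Their summed level overlapped between phenotypes in both regions. It was 13490 to 16140 CPM in OFC perseverers against 12710 to 15650 in OFC renouncers, and 12060 to 16020 against 13670 to 13860 in the mPFC. Vamp2, the vesicle SNARE of fast transmitter release, stood at 1261, 1291 and 1259 CPM in OFC renouncers against 1495, 1516 and 1770 in OFC perseverers. Its mPFC levels were 1335, 1406 and 1273 against 1760, 1578 and 1628 CPM, again with no overlap. The log2 fold change was 0.32 ± 0.09 (SE) and 0.36 with the length trend removed.

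Syn1, which tethers vesicles in the reserve pool, stood at 531, 487 and 466 CPM against 550, 722 and 566 in the OFC, and at 505, 509 and 477 against 714, 816 and 605 in the mPFC. Perseverer replicate 2 was highest in both regions, and neither region overlapped. Of the 30 genes, 4 were apart and higher in both regions, against 1.22% of all genes tested. Without both libraries of perseverer replicate 2 the median of the synaptic vesicle and active zone genes was -0.01, so that it rested on that pair of libraries.

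On the postsynaptic side, metabotropic glutamate receptors and postsynaptic scaffolds had the highest share of small p-values. Their median was 0.255, with 16 of 25 members positive, 10 higher at an unadjusted p under 0.05 (40% against the background of 11.1%) and 0 lower. Their summed level lay between 3158 and 3902 CPM in OFC perseverers and 2711 and 3121 in OFC renouncers, and between 3079 and 4373 against 2467 and 3049 in the mPFC. The 2 phenotypes did not overlap in either region. The median stayed between 0.12 and 0.324 over 31 alternatives and was 0.139 with the length trend removed.

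Shank1, a scaffold of the postsynaptic density, stood at 344, 437 and 342 CPM against 519, 386 and 751 in the OFC, and at 422, 238 and 280 against 426, 324 and 745 in the mPFC. The groups overlapped through perseverer replicate 2, and replicate 3 of the perseverers was the highest library in each region. Its log2 fold change was 0.62 ± 0.21 (SE) and ranged from 0.26 to 0.81 over the alternatives. Dlgap4 and Dlgap2, which link Shank proteins to PSD-95, had fold changes of 0.44 ± 0.14 and 0.37 ± 0.12 (SE). Without both libraries of perseverer replicate 3 the fold change of Dlgap4 was 0.20. No member of this group was apart in both regions.

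Ionotropic receptors lay closer to the background. AMPA receptor subunits and auxiliary subunits had a median of 0.124, with 13 of 17 positive and 1 higher at an unadjusted p under 0.05, Shisa6 at 0.80 ± 0.35 (SE), which was 0.44 without mPFC perseverer replicate 3. NMDA and kainate receptor subunits had a median of 0.098 and 10 of 16 positive, with 3 higher; among them was Grik5, a high-affinity kainate subunit, at 0.32 ± 0.13 (SE) and 0.21 without that library. GABA receptor genes had a median of -0.071 with 10 of 16 negative, and single libraries moved it. It was -0.141 without OFC renouncer replicate 2, -0.002 without OFC renouncer replicate 1 and 0.011 without mPFC perseverer replicate 3, and it ranged from -0.182 to 0.061 over 31 alternatives. Within that group Gabbr1, a subunit of the GABA-B receptor, stood at 0.22 ± 0.09 (SE), and the GABA-A subunit genes Gabra4 and Gabrg1 at -0.23 ± 0.10 and -0.32 ± 0.15.

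Channel genes gave medians of 0.129 for voltage-gated sodium, calcium and HCN channels (20 of 27 positive, 3 higher and 2 lower at an unadjusted p under 0.05) and 0.090 for voltage-gated potassium channels (17 of 25 positive, 4 higher). By region, the medians of the 2 groups were 0.014 and 0.043 in the OFC and 0.219 and 0.192 in the mPFC. Removal of the length trend brought the medians over both regions to 0.007 and -0.013, and the potassium channel median was -0.009 without OFC perseverer replicate 2. Cacnb3, a calcium channel beta subunit, had a fold change of 0.40 ± 0.15 (SE), Hcn2 0.49 ± 0.20 and Kcnc4 0.37 ± 0.14. For Cacnb3 and Hcn2, mPFC perseverer replicate 3 stood at 416.8 and 249.6 CPM, and the other mPFC perseverers at 251.5 and 226.8 and at 151.1 and 106.5. Without that library their fold changes were 0.25 and 0.31, and without both libraries of perseverer replicate 3 they were 0.16 and 0.16. Scn1a, the sodium channel of fast-spiking interneurons, lay at -0.33 ± 0.14 (SE), and at -0.21 without mPFC renouncer replicate 3. The leak channel gene Kcnk3 stood at 0.47 ± 0.15 in a group whose median was -0.009.

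Of 9 excitatory neuron markers 8 were positive, with a median of 0.034 and 3 higher at an unadjusted p under 0.05. The median ranged from -0.093 to 0.173 and was negative in 4 of 31 alternatives, among them -0.001 with counts summed per pair, -0.006 with library totals as scaling and -0.041 without mPFC perseverer replicate 2. Slc17a7, the vesicular glutamate transporter of cortical pyramidal cells, stood at 1443, 1284 and 1290 CPM against 1663, 1722 and 1453 in the OFC, and at 1306, 1460 and 1218 against 1794, 1760 and 1645 in the mPFC. In the OFC the lowest perseverer lay just above the highest renouncer. Its log2 fold change was 0.33 ± 0.09 (SE), the pyramidal transcription factor Tbr1 had 0.36 ± 0.11, and both genes were apart in both regions. Camk2a, the kinase of excitatory synapses, had 0.55 ± 0.22, with perseverer replicate 3 of the mPFC at 4723 CPM and the other 11 libraries between 1471 and 3403. Without that library the fold change of Camk2a was 0.29.

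Of 14 interneuron markers 13 were negative, with a median of -0.144 and 2 lower at an unadjusted p under 0.05. Vip, the peptide of disinhibitory interneurons, stood at 110, 113.92 and 149 CPM against 96.1, 94.4 and 103.96 in the OFC and at 170, 163 and 122 against 103, 116 and 122 in the mPFC. The perseverer libraries lay below the renouncers in both regions, with the closest mPFC pair at 121.8 and 122.4 CPM. Its log2 fold change was -0.38 ± 0.11 (SE).

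Sst, the peptide of dendrite-targeting interneurons, overlapped in the OFC with 307, 298 and 317 CPM against 298, 267 and 235. It was apart in the mPFC, with 448, 423 and 621 CPM in renouncers against 317, 294 and 335 in perseverers. The log2 fold change was -0.43 ± 0.12 (SE), and -0.19 with the length trend removed. Pvalb, the calcium buffer of fast-spiking cells, had a fold change of -0.52 ± 0.29 that became 0.02 without both renouncer replicate 3 libraries. The median of the interneuron markers stayed negative in 31 of 31 alternatives, from -0.32 to -0.029.

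Layer markers were mostly positive, with medians of 0.150 for 12 upper-layer and 0.182 for 14 deep-layer genes. Both stayed positive in 31 alternatives, but their size did not hold. The deep-layer median was 0.036 without OFC perseverer replicate 1 and 0.071 without mPFC perseverer replicate 1. The upper-layer median was 0.078 without mPFC perseverer replicate 3, 0.085 without OFC perseverer replicate 3, 0.008 without both and 0.042 with the length trend removed. Cux2, a transcription factor of upper-layer neurons, had the largest fold change among those named, 0.62 ± 0.18 (SE). Its mPFC levels were 47.9, 51.7 and 30.4 CPM in renouncers and 48.2, 74.6 and 103 in perseverers, so that the lowest perseverer fell within the renouncer range. Bcl11b, a factor of subcerebral projection neurons, lay at 0.34 ± 0.13.

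Neuropeptide genes leaned lower. Of 23 opioid and other neuropeptides and receptors 16 were negative, with a median of -0.148. At an unadjusted p under 0.05, 5 lay lower and 1 higher. Of the 23, 3 were apart and lower in both regions, against 0.572% of all genes tested. Sst and Vip belong to this group as well as to the interneuron markers. Pomc, the precursor of melanocortins and beta-endorphin, had the largest fold change, -3.66 ± 1.16 (SE), and it rested on 1 pair of libraries. Renouncer replicate 3 stood at 38.5 CPM in the OFC and 183 in the mPFC, and the other 10 libraries lay between 1.35 and 4.76. Without that pair the fold change of Pomc was 0.05. The median of the group was 0.007 without both libraries of perseverer replicate 3. The opioid peptide gene Penk had a fold change of -0.33 ± 0.15. It was -0.19 without both libraries of perseverer replicate 3 and -0.52 without both of perseverer replicate 2.

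Activity-dependent genes split. Immediate early genes had 13 of 19 positive, a median of 0.044 and 3 higher at an unadjusted p under 0.05, while activity-induced effector genes had 15 of 18 negative and a median of -0.149 that ranged from -0.286 to -0.01, the last without both libraries of perseverer replicate 3. Nr4a2, an orphan nuclear receptor, stood at 36.0, 18.1 and 42.1 CPM against 63.0, 34.2 and 51.5 in the OFC and at 18.2, 20.4 and 12.7 against 33.7, 37.4 and 24.9 in the mPFC. It was apart in the mPFC and overlapped in the OFC, with a log2 fold change of 0.76 ± 0.21 (SE). Its relative Nr4a3 and the AP-1 subunit gene Fosl2 had 0.42 ± 0.15 and 0.49 ± 0.16. Gadd45g, a stress and demethylation factor, lay at -0.56 ± 0.20, and the kinase gene Sik1 at 0.43 ± 0.17. Gadd45g was at -0.36 without both libraries of renouncer replicate 2, and Sik1 at 0.24 without both of perseverer replicate 3. The median of the immediate early genes was -0.154 without both libraries of perseverer replicate 2, -0.058 without the mPFC one alone, -0.042 without the OFC one alone and -0.001 without both of renouncer replicate 3.

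Circadian clock genes had 14 of 19 positive, a median of 0.232 and 5 higher at an unadjusted p under 0.05 (26.3%), and the median stayed positive in 31 of 31 alternatives, from 0.106 to 0.279. Per2, a repressor of the clock loop, stood at 22.0, 25.3 and 22.4 CPM against 23.8, 36.4 and 34.4 in the OFC and at 25.1, 29.1 and 24.2 against 25.3, 55.7 and 52.1 in the mPFC. Perseverer replicate 1 lay at the renouncer level in both regions, and replicates 2 and 3 above it. The log2 fold change of Per2 was 0.60 ± 0.18 (SE), that of Cry2 0.32 ± 0.10 and that of Npas2 0.35 ± 0.13. The labels used here give no time of day of collection.

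Genes of the pathways often studied in addiction gave few small p-values. Of 13 dopamine receptor, synthesis and signalling genes tested, 7 were positive with a median of 0.050, which was -0.002 without mPFC renouncer replicate 2. Adcy5, the adenylyl cyclase downstream of dopamine receptors, had a fold change of 0.54 ± 0.22 (SE) and Gng7, a G protein subunit gene, 0.39 ± 0.18. Both rested on perseverer replicate 3. In the mPFC that library stood at 120.4 CPM for Adcy5 and 436.7 for Gng7. The fold changes were 0.28 and 0.22 without it, and 0.11 and 0.10 without both libraries of that replicate. Drd2, Drd3 and Slc6a3 were below the low-count filter. Of 9 endocannabinoid genes 6 were positive (median 0.112, and -0.026 without both libraries of perseverer replicate 2); Dagla, which makes 2-arachidonoylglycerol, had 0.37 ± 0.11. Serotonin, adrenergic and acetylcholine receptors had 12 of 24 positive and 0 with an unadjusted p under 0.05.

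Histone deacetylases and chromatin enzymes had a median of 0.134, with 17 of 24 positive and 6 higher at an unadjusted p under 0.05. Hdac4, a class IIa deacetylase that shuttles to the nucleus, had 0.51 ± 0.17 (SE), and 0.28 without both libraries of perseverer replicate 3. For Hdac4, 22.4% of exon bases overlap another gene, so reads of the 2 genes could be confused. The histone methyltransferase gene Ehmt2 had 0.34 ± 0.12, and 0.22 without mPFC perseverer replicate 3. The group's median was 0.034 with the length trend removed.

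Mitochondrial and ribosomal genes leaned lower and moved with gene length. Oxidative phosphorylation genes had 43 of 46 negative and a median of -0.202, but 2 lower and 1 higher at an unadjusted p under 0.05 (6.52%, below the background). The median was -0.016 with the length trend removed and 0.009 without both libraries of renouncer replicate 3. Uqcrc2, of complex III, had a fold change of -0.27 ± 0.10 (SE), and the complex II genes Sdhd and Sdha had -0.36 ± 0.17 and 0.21 ± 0.09. Cytosolic ribosomal protein genes had 49 of 54 negative and a median of -0.158, which was 0.042 with the length trend removed and 0.080 without both libraries of renouncer replicate 3. Many ribosomal protein genes have near-identical copies, and their counts are uncertain.

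Of 19 heat shock proteins and chaperones 15 were negative, with a median of -0.068 and 0 at an unadjusted p under 0.05. That median ranged from -0.197 to 0.089, and it was 0.026 without mPFC perseverer replicate 3. Other stress genes and lipid genes were divided. Nfkbia, the inhibitor of NF-kappaB and a glucocorticoid target, had a fold change of -0.49 ± 0.14 (SE) and Sgk1 -0.29 ± 0.12, in a group of 17 with a median of -0.017. Atf4, the effector of the integrated stress response, had -0.34 ± 0.11. Srebf2, the transcriptional activator of cholesterol synthesis, stood at 217, 203 and 177 CPM against 242, 237 and 272 in the OFC and at 240, 210 and 186 against 307, 253 and 350 in the mPFC. It was apart in both regions with a log2 fold change of 0.42 ± 0.11, while its target genes were divided, with Lss at 0.38 ± 0.12 and Msmo1 at -0.33 ± 0.12. The 19 cholesterol genes had 10 positive and a median of 0.009.

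Among growth factor genes, Gfra2, the receptor for neurturin, was apart in both regions with a fold change of 0.39 ± 0.10 (SE), and Fgfr2 had 0.36 ± 0.16, which was 0.23 without mPFC perseverer replicate 1. The group had 14 of 21 positive and a median of 0.179 (0.019 in the OFC and 0.271 in the mPFC), which was 0.066 with the length trend removed. Ncan, a proteoglycan of perineuronal nets, had 0.37 ± 0.11.

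Glial markers overlapped between the phenotypes in their mean level in both regions. Astrocyte markers had 11 of 14 positive and a median of 0.144, with Slc1a2, the main glutamate transporter, at 0.37 ± 0.13 (SE) and the sodium pump subunit gene Atp1b2 at 0.29 ± 0.10. The fold change of Slc1a2 was 0.17 without both libraries of perseverer replicate 3. Oligodendrocyte and myelin genes, which summed to 6480 to 21030 CPM in the OFC and 2640 to 8859 in the mPFC, had a median of -0.028 and 0 of 16 with an unadjusted p under 0.05. Microglia markers had 0 of 14. Endothelial markers had a median of -0.017 over both regions, and their mean log2 level was above that of renouncers in all 3 OFC perseverers but overlapped in the mPFC. Among them Vwf, of large vessels, had 1.30 ± 0.49 on levels of 0.078 to 11.3 CPM, with mPFC renouncer replicate 3 lowest. Meningeal fibroblast markers had medians of -0.429 in the OFC and 0.504 in the mPFC. OFC renouncer replicate 2 had a mean log2 level of 4.36 for them, and the other 5 OFC libraries lay between 2.001 and 3.184. Without that library their pooled median moved from -0.057 to 0.404, and its sign changed in 11 of 31 alternatives. Olfactory bulb and neuroblast markers had medians of 0.108 and 0.864, with 0 members of either group at an unadjusted p under 0.05 over both regions.

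The difference between phenotypes was also tested for a difference between regions. With edgeR, 0 of 15025 genes passed the interaction test, 225 (1.5%) had an unadjusted p under 0.05, and DESeq2 called 0. Within the OFC, 0 genes passed and 256 (1.7%) had an unadjusted p under 0.05, and within the mPFC 0 and 1148 (7.64%), when all 12 libraries shared one estimate of the spread. Fits on the 6 libraries of a region alone also called 0, with 377 (2.58% of 14621) in the OFC and 639 (4.445% of 14375) in the mPFC. Gcn1, a sensor partner of the kinase that halts translation when amino acids are scarce, had the smallest interaction p. It stood at 35.3, 29.2 and 30.5 CPM in OFC renouncers against 25.4, 28.6 and 26.7 in OFC perseverers. In the mPFC it stood at 25.2, 27.9 and 16.4 against 44.4, 48.8 and 47.1 CPM.

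The phenotypes were thus apart for Gcn1 in both regions but in opposite directions, with log2 fold changes of -0.24 ± 0.18 (SE) in the OFC and 1.01 ± 0.19 in the mPFC. The difference of -1.25 ± 0.26 had an adjusted p of 1 by edgeR and 0.0992 by DESeq2. Rrp12, a ribosome assembly factor, had -0.17 in the OFC and 0.84 in the mPFC. Adam12, a metalloprotease, followed at levels of at most 1.84 CPM.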

How the data were processed

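The deposited tables hold whole-number counts per gene and library, with a gene length in bases (the authors' value), for 25239 genes. RNA was prepared with an ultra-low-input kit and Nextera tagmentation, per the labels' protocols. FastQC 0.11.8 and build mm10 appear in the submitters' processing notes; for the aligner, counter, annotation and strand setting, the sources used here give nothing. Of the identifiers, 99.6% matched RefSeq GRCm38.p6, the source of positions. Exon overlaps came from GENCODE M21 exons, and GC content from GENCODE M21 transcripts (97.9% matched).

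The OFC and mPFC tables were joined by gene. In R 4.3.3, edgeR 4.0.16 kept genes by filterByExpr over the 4 groups, scaled by TMM and fitted region and phenotype with a robust quasi-likelihood model, two-sided, Benjamini-Hochberg adjusted over 15025 genes at 0.05. Interaction and within-region contrasts came from 4 group means. Fold changes are log2, perseverer minus renouncer; SE is the fold change over the square root of F. Alternatives were DESeq2 1.42.0, limma 3.58.1 voom with and without a correlation within pairs, counts summed per pair, a block for replicate number, other scalings and filters, and leaving out each library and each pair. A looser threshold of 0.1 is also counted among them. It used the main fit, so fold changes and group medians could not move under it. Removal of each library's length or GC trend (lowess, span 0.3), and library totals as scaling in the model, were chosen after the data were seen. Library measures were tested by exact permutation. The model was tested on simulated data.

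The comparison and the gene lists were chosen with earlier results of these data known. Named are 12 genes in each direction with the smallest p, up to 3 members per list and 3 genes of the interaction, leaving out genes without an ordinary name; not all are printed. The 5 imprint libraries were not used. Replicates may be technical where the labels do not say otherwise, and p-values then measure only the spread between these libraries.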

Additional observations from a re-analysis of the deposited data

Results flagged for a closer look

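In 6 of 178 sets of 6 libraries of a phenotype, 1 library lay far from the nearest other, judged by that gap as a share of the whole range after each region's mean was subtracted (Dixon, 95%). Chance gives about 1 in 20 such sets. OFC renouncer replicate 1 stood apart for Tmem94 (0.696) and Ap2a2 (0.655), in both cases on the side of the perseverers. For Stk35 and Ppp2r3c it was mPFC perseverer replicate 3, with shares of 0.781 and 0.636, and there the library lay farther from the renouncers than the other perseverers. The library of mPFC renouncer replicate 3 stood apart for Sst (0.785), where it was the highest at 621 CPM, and for Cux2 (0.642), where it was the lowest at 30.4 CPM. Without both libraries of renouncer replicate 3 these genes kept their direction.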

How the results depend on the processing

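edgeR's count of 0 genes over both regions held under every scaling, filter, threshold, pairing and leave-out tried; DESeq2's 109 was the exception. The counts of 0 for the interaction and within each region also held. Genes at an unadjusted p under 0.05 (1669, 11.1%) numbered 797 (5.23%) without both renouncer replicate 3 libraries and 2668 (17.55%) without both of perseverer replicate 3. The cause was not tested. Genes apart in the same direction in both regions (269) rose to between 466 and 945 when a pair was left out, since fewer libraries had to be ordered. The 87 genes followed gave 2655 gene values under the alternatives, and 2 genes reversed, Pvalb (0.016) and Pomc (0.051). Both reversed without the renouncer replicate 3 pair. Over the alternatives Pvalb ranged from -0.776 to 0.016 and Pomc from -4.305 to 0.051. With the replicate number as a block edgeR called 0, with 2245 genes at an unadjusted p under 0.05; the numbers did not pair perseverers with renouncers (correlations of deviations from -0.509 to 0.392), and the block changed no call. All 12 libraries held Y-linked transcripts and almost no Xist, so the planned sex covariate was not run. The SE was larger at lower levels: its median was 0.117 for genes with a mean log2 CPM above 6, 0.139 from 4 to 6, 0.21 from 2 to 4 and 0.457 below 2. Differences well above their SE also went uncalled by edgeR, such as Srgap3 at 0.45 ± 0.09 (SE) with an adjusted p of 0.345. The part of sequencing depth in this was not tested.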
